A study of Homo sapiens with 12 samples.

Results

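Cytosolic ribosomal protein genes encode the protein part of the ribosome that translates nuclear-encoded mRNA. They were followed by RNAseq in C4-2 cells, an established prostate cancer line derived from LNCaP, after treatment with PBKi (HI-TOPK-032 at 1 µM, a small molecule inhibitor of the kinase PBK) or with the vehicle DMSO for 6 h. Each group held 6 libraries, both were treated in the same line, and the labels gave no other difference between them. Members were the protein-coding genes whose symbol is RPL, RPS, RPLP or RPSA with a number and, where present, an A, X or L ending. The rule found 84 genes, of which 83 had a row among the 54127 in the count files, and 81 passed the filter of at least 10 reads in at least 6 libraries, of 14505 genes that did. Of these, 45 were canonical proteins of the large subunit, 30 were canonical proteins of the small subunit and 6 were "-like" paralogues, which are encoded by separate genes that resemble a canonical one.

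The ribosome is built from a small subunit, which reads the mRNA, and a large subunit, which joins the amino acids. The canonical proteins are used in near equal numbers, so their genes are commonly expressed together. Most of their mRNAs begin with a C followed by an unbroken run of pyrimidines, the 5′ terminal oligopyrimidine (TOP) motif, through which the mTORC1 pathway and the protein LARP1 control their translation and stability. Several -like paralogues can stand in for the canonical protein or act elsewhere, such as RPS27L, a known p53 target.

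Library depth ran from 9663203 to 28029908 reads on genes. PBK itself was measured at a lowest, median and highest of 169, 217 and 269 CPM (reads per unit of library size, scaled by TMM factors) in DMSO and 140, 167 and 185 in PBKi. It was downregulated (log2 fold change -0.42 ± 0.0948 SE, edgeR quasi-likelihood test, adjusted p = 0.00194), although an inhibitor of the kinase need not change its mRNA. Of 7 luminal prostate markers, all 7 were above the filter, including KLK3. The 4 immune markers and 4 of the 5 fibroblast markers were below it, and COL1A1 was the exception. Reads outside genes were most frequent in PBKi replicates 3 and 6, at 9.30% and 8.83%, against 5.74% to 6.96% in the other libraries.

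The start of the transcript is shown for some of the members whose values are described below. The TOP motif is the sequence feature that these genes are best known to share. How many hold it is counted over all members after the windows, and the windows shown do not measure that share. Each window runs from 10 bases before the annotated first base to 20 bases from it onwards, 5′ to 3′ on the gene's strand of GRCh37, and the capitals mark the pyrimidine run that begins at the first base.
RPS21, chr20:60962149-60962178, plus strand: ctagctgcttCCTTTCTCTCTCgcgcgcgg
RPS6, chr9:19380215-19380244, minus strand: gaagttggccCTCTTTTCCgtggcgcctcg
RPL5, chr1:93297587-93297616, plus strand: gggctgtggcCCTTTTCCCaccccctagcg
RPL11, chr1:24018286-24018315, plus strand: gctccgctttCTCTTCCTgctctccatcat
RPL6, chr12:112847390-112847419, minus strand: gaccttaattCTCTTTCCCatcttgcaagg
RPL19, chr17:37356526-37356555, plus strand: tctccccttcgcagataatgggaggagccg
RPS27, chr1:153963228-153963257, plus strand: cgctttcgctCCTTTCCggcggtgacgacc
RPS27L, chr15:63449657-63449686, minus strand: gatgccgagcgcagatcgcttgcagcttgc
RPL22, chr1:6259636-6259665, minus strand: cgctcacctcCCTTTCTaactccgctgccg
RPL22L1, chr3:170587965-170587994, minus strand: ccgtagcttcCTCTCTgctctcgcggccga
RPL26, chr17:8286492-8286521, minus strand: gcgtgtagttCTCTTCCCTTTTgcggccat
RPL26L1, chr5:172386417-172386446, plus strand: acggaaactcacttccggccctgcgcactc
RPL7L1, chr6:42847344-42847373, plus strand: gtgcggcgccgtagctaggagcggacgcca
RPL10, chrX:153626708-153626737, plus strand: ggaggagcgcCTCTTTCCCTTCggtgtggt
RPL10L, chr14:47120965-47120994, minus strand: gtagttaagagagcgcattttgacttcgag

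A TOP start was counted where the annotated first base was C and the first 5 bases were all C or T. By this count 59 of the 84 members held one (70.2%), against 913 of 19881 protein-coding genes (4.59%). The canonical members held it in 58 of 77 cases and the -like paralogues in 1 of 7, RPL22L1. With such a run allowed to begin within 5 bases of the annotated start, the figures were 68 of 84 members (81.0%), 2 of 7 -like paralogues and 21.8% of all protein-coding genes. The windows rest on annotated starts, and the starts used in C4-2 cells were not measured.

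Ribosomal protein mRNAs were downregulated as a group in PBKi. The test called 75 of the 81 members lower and 1 higher at an adjusted p under 0.05, where 21.6% of all tested genes were called lower and 20.1% higher. Their median log2 fold change was -0.33, a fall of 20.5%, against a median of -0.01 for all genes tested. A negative log2 fold change was found in 78 members, against 51.9% of all genes, and the middle 50% of members lay between -0.41 and -0.29. Among 2482 other genes with a mean of at least 100 CPM, a level that most members exceed, 30.9% were called lower and the median was -0.06. At an adjusted p under 0.01, 69 members were lower, against 14.3% of all genes.

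The falls were modest and even. Standard errors of the members' log2 fold changes ran from 0.0460 to 0.240 with a median of 0.0692. In 36 members the 6 PBKi libraries all lay below the 6 DMSO libraries, against 9.68% of all genes. In 1 member, RPL10L, they all lay above (10.5% of all genes), and in the other 44 the groups overlapped. The ordered plot of the log2 fold changes shows a continuous band for the canonical genes, with RPL22L1 inside it and the other 5 tested -like paralogues above it.

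**Figure D1:**
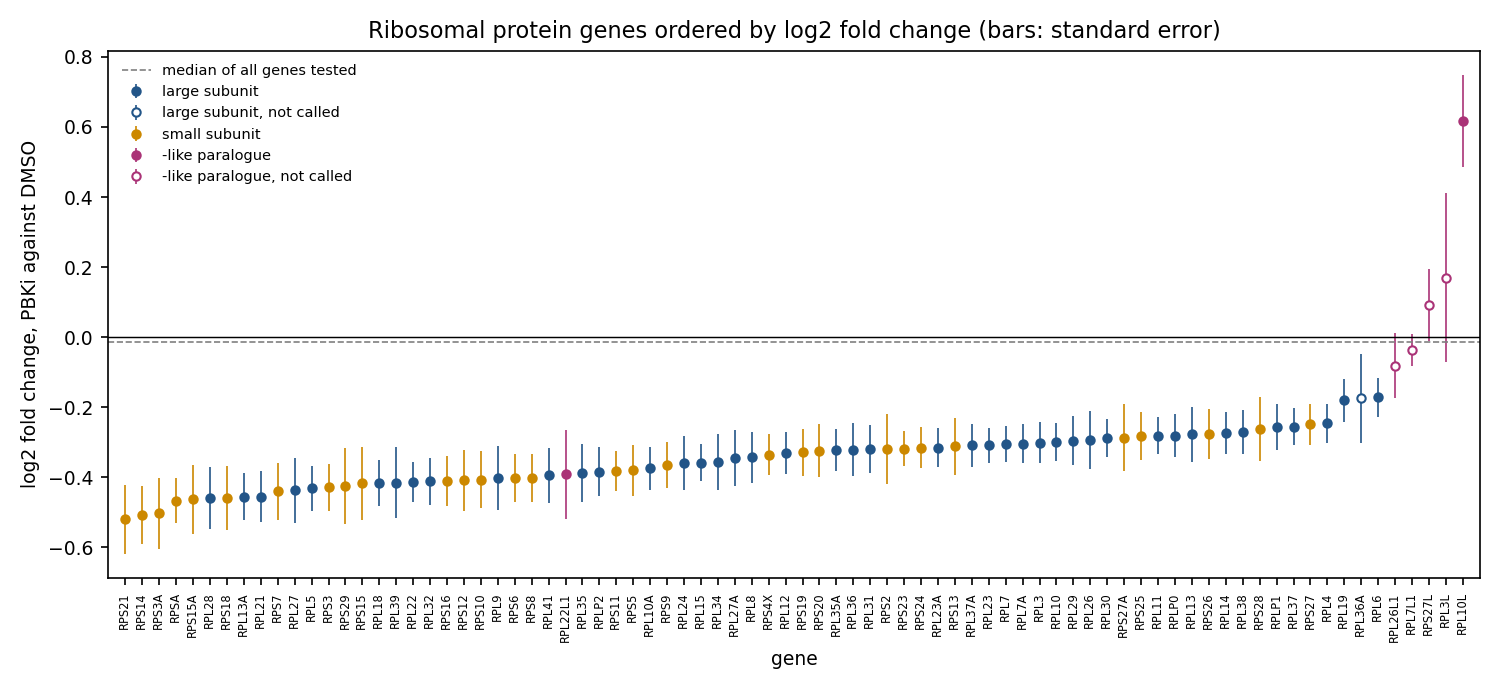
Log2 fold change of PBKi against DMSO (vertical axis) for 80 of the 81 tested members (horizontal axis, 1 canonical gene not shown), with bars of 1 standard error. Filled points passed the test and open points did not. Canonical genes run from -0.52 for RPS21 to -0.17 for RPL6, and 5 of the 6 -like paralogues are the rightmost points.

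As a share of the reads, the members took 5.00% to 6.31% of reads on genes in the DMSO libraries (5.73% ± 0.490, SD, n = 6) and 4.34% to 4.94% in the PBKi libraries (4.64% ± 0.239, SD, n = 6). The groups did not overlap, but DMSO replicate 6 at 5.00% was only just above PBKi replicate 1 at 4.94%. In bulk RNA, a smaller share of reads on these genes and a larger amount of other RNA cannot be told apart.

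**Figure D2:**
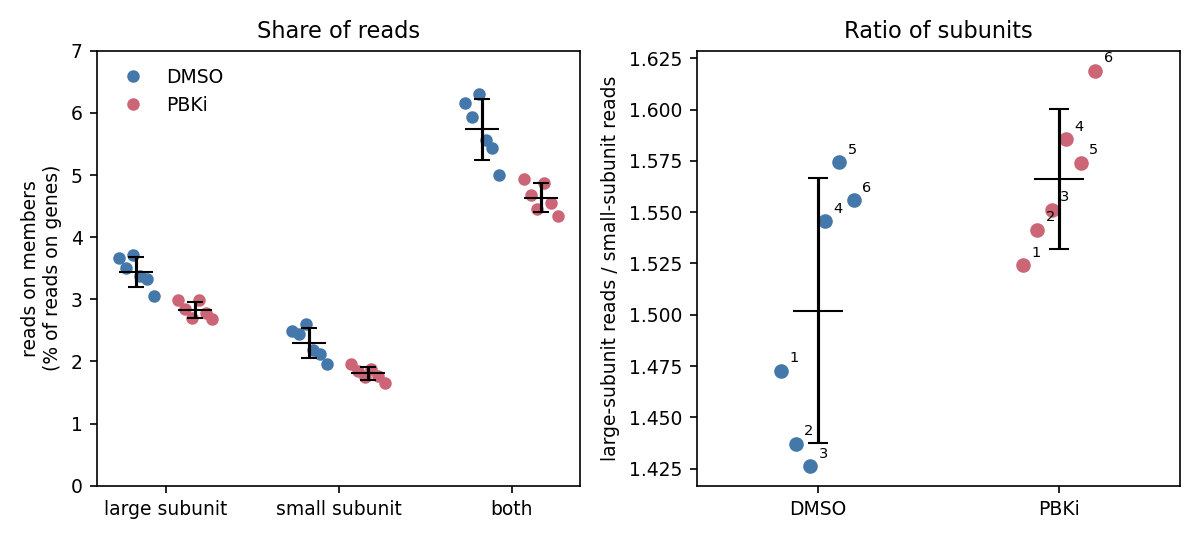
Left, reads on the large-subunit members, the small-subunit members and both together as a percentage of reads on genes, with 1 point a library and bars for the mean and SD (n = 6 per group). Right, the ratio of large-subunit to small-subunit reads, numbered by replicate on an axis that does not start at 0. The share for both subunits is 5.00% to 6.31% in DMSO and 4.34% to 4.94% in PBKi, whereas the ratios overlap.

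Members of the small subunit sit around the mRNA path and the decoding site. All 30 canonical small-subunit genes were downregulated, against 21.6% of all genes tested. Their median log2 fold change was -0.39, with a range from -0.52 to -0.25. The largest falls belonged to RPS21 and RPS14. RPS21 (chromosome 20, 60962159 to 60963576) ran at a lowest, median and highest of 402, 497 and 651 CPM in DMSO and 325, 352 and 395 in PBKi. Its groups did not overlap, the log2 fold change was -0.52 ± 0.0984 SE (adjusted p = 0.000422), and a two-sided exact permutation test on the log2 CPM gave p = 0.00216, the smallest that 6 libraries against 6 allow. RPS14, a protein of the platform of the small subunit whose loss underlies a form of myelodysplasia, had a median of 1338 CPM in DMSO and 938.6 in PBKi. All of its PBKi libraries lay below all of its DMSO libraries (log2 fold change -0.51 ± 0.0821 SE, adjusted p = 9.69e-05).

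RPS6 is the small-subunit protein that S6 kinases phosphorylate downstream of mTORC1. It ran at a lowest, median and highest of 2348, 2811 and 3093 CPM in DMSO and 1866, 2094 and 2272 in PBKi. The groups were apart, and the log2 fold change was -0.40 ± 0.0692 SE (adjusted p = 0.000178), a fall of 24.3%. RPSA, which is also known as the laminin receptor, ran from 455 to 576 CPM in DMSO and from 345 to 411 in PBKi (log2 fold change -0.47 ± 0.0643 SE, adjusted p = 1.85e-05). RPS3A and RPS15A completed the small-subunit genes among the 6 largest falls, at -0.50 and -0.46. The PBKi and DMSO libraries overlapped for RPS3A and were apart for RPS15A. RPS3A shares 26.4% of its coding sequence with an overlapping gene, SH3D19, and none of its 40-base windows of coding sequence is unique to it. The read length is 40 bases, and reads with several alignments were not counted.

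The smallest falls of this subunit were in RPS27 and RPS28 (-0.25 and -0.26). RPS27A, which is made as a fusion to ubiquitin, overlapped between groups, at 258 to 394 CPM in DMSO and 232 to 303.5 in PBKi (log2 fold change -0.29 ± 0.0957 SE, adjusted p = 0.0230). The call for RPS27A was lost without any 1 of DMSO replicates 1, 2 and 3 and PBKi replicate 6, with log2 fold changes of -0.24, -0.26, -0.23 and -0.24.

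In the large subunit, 44 of 45 canonical genes were downregulated, against 21.6% of all genes tested. Their median log2 fold change was -0.32, with the middle 50% between -0.39 and -0.29. RPL5 and RPL11 form a particle with 5S rRNA that binds MDM2 when ribosome assembly stalls. RPL5 ran at a lowest, median and highest of 653, 780 and 841 CPM in DMSO and 515, 564 and 602 in PBKi (log2 fold change -0.43 ± 0.0647 SE, adjusted p = 4.48e-05). RPL11 ran at 633, 669 and 719 CPM in DMSO and 507, 548 and 587 in PBKi (log2 fold change -0.28 ± 0.0524 SE, adjusted p = 0.000366). The groups were apart for both genes.

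The acidic P proteins form the stalk that recruits translation factors. RPLP0, the base of the stalk, fell by 0.28 on the log2 scale (SE 0.0621, adjusted p = 0.00154), RPLP1 fell by 0.26 (SE 0.0652, adjusted p = 0.00448) and RPLP2 fell by 0.38 (SE 0.0692, adjusted p = 0.000276). The PBKi and DMSO libraries were apart for RPLP2 only.

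The genes that moved least among those called were RPL6, RPL19, RPL4, RPS27, RPL37 and RPLP1. RPL6 ran at a lowest, median and highest of 561, 606 and 677 CPM in DMSO and 515, 538 and 571 in PBKi (log2 fold change -0.17 ± 0.0548 SE, adjusted p = 0.0180). RPL19 ran at 962, 1136 and 1235 CPM in DMSO and 940, 981 and 1086 in PBKi (log2 fold change -0.18 ± 0.0609 SE, adjusted p = 0.0243). Both overlapped between groups. RPL6 lost its call without DMSO replicate 1 (-0.14) or PBKi replicate 6 (-0.16). RPL19 lost it without DMSO replicate 1 (-0.16) or 3 (-0.15), or PBKi replicate 5 (-0.16) or 6 (-0.16). RPL4, whose intron-rich gene holds 4 small nucleolar RNAs, fell by 0.25 with its groups apart, from 1432 to 1651 CPM in DMSO to between 1165 and 1409 in PBKi (adjusted p = 0.00191). RPL37 also fell by 0.26 (adjusted p = 0.000892).

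RPL36A was the only canonical member that was not called. It ran at a lowest, median and highest of 19.9, 32.9 and 37.4 CPM in DMSO and 21.7, 30.8 and 33.6 in PBKi (log2 fold change -0.17 ± 0.128 SE, adjusted p = 0.289). Its groups overlapped throughout. Without DMSO replicate 5, which held the lowest value, it fell by 0.27 (adjusted p = 0.0363). The read-through gene RPL36A-HNRNPH2 covers 94.3% of its coding sequence and none of its 40-base windows is unique, and reads that fall in overlapping genes or in several places were not counted. RPL17 had no row under its present identifier. The read-through gene RPL17-C18orf32, which spans that locus and is no member, fell by 0.33 (SE 0.0724, adjusted p = 0.00144).

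Between subunits, the small-subunit median of -0.39 was below the large-subunit median of -0.32, and the spans of the single genes largely overlapped. Reads on large-subunit members outnumbered those on small-subunit members by 1.502 ± 0.0645 to 1 in DMSO and 1.57 ± 0.0341 to 1 in PBKi (SD, n = 6 each). The single libraries ran from 1.43 to 1.57 and from 1.52 to 1.62 and so overlapped. The DMSO ratios fell into 1.43 to 1.47 in replicates 1 to 3 and 1.55 to 1.57 in replicates 4 to 6, and the PBKi ratios into 1.52 to 1.55 and 1.57 to 1.62.

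The -like paralogues did not follow the canonical genes as a set. Of the 6 tested, 1 was lower and 1 was higher, where 21.6% and 20.1% of all genes were, and 4 were not called. Their median log2 fold change was 0.03, near the -0.01 of all genes tested. The number of canonical genes called lower, 74 of 75, stands against the same 21.6% of all genes. RPL22L1, RPL26L1, RPL7L1, RPL3L, RPL10L and RPL39L resemble large-subunit proteins and RPS27L resembles RPS27.

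RPL10L, an intronless copy of RPL10 known for its role in male germ cells, was the only member called higher. It ran at a lowest, median and highest of 2.35, 2.97 and 3.45 CPM in DMSO and 3.55, 4.34 and 5.54 in PBKi, or 29 to 131 reads a library. All PBKi libraries lay above all DMSO libraries (log2 fold change 0.62 ± 0.132 SE, adjusted p = 0.00118, two-sided exact permutation p = 0.00216). RPL10 on chromosome X moved the opposite way, from 547 to 609 CPM in DMSO to between 428 and 520 in PBKi (log2 fold change -0.30 ± 0.0534 SE, adjusted p = 0.000246). The pair share 89.1% of their aligned coding bases and a longest identical run of 50 bases, but 98.2% of the 40-base windows of RPL10L occur once in the genome. No pyrimidine run begins at the annotated first base of RPL10L, and one of 12 bases begins at that of RPL10. The part of the starts in these changes was not tested.

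RPS27L ran at 67.0, 85.4 and 107 CPM in DMSO and 82.1, 91.8 and 103 in PBKi, with overlapping groups (log2 fold change 0.09 ± 0.103 SE, adjusted p = 0.504). RPS27 had a median of 390 CPM in DMSO and 323 in PBKi (log2 fold change -0.25 ± 0.0584 SE, adjusted p = 0.00249). RPL7L1, whose protein acts in the maturation of the large subunit, was nearly level at 368, 387 and 395 CPM in DMSO and 354, 379 and 395 in PBKi. Its log2 fold change was -0.04 ± 0.0460 SE (adjusted p = 0.549), the most precise estimate of any member. RPL7 was downregulated (log2 fold change -0.30 ± 0.0514 SE, adjusted p = 0.000147).

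RPL26L1 ran at 25.1, 30.2 and 37.5 CPM in DMSO and 23.7, 29.7 and 31.7 in PBKi (log2 fold change -0.08 ± 0.0924 SE, adjusted p = 0.505). RPL26, which also binds the p53 mRNA, had medians of 890.2 and 716 CPM (log2 fold change -0.29 ± 0.0820 SE, adjusted p = 0.00828). RPL3L, a paralogue of striated muscle, held 8 to 24 reads a library, and RPL39L held 0 to 5 and was not tested. RPL3 and RPL39 were both downregulated, at -0.30 ± 0.0588 SE (adjusted p = 0.000556) and -0.42 ± 0.102 SE (adjusted p = 0.00330).

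RPL22L1 was the only -like paralogue called lower. It ran at 555, 738 and 1057 CPM in DMSO and 501, 581 and 645 in PBKi. The groups overlapped, with DMSO replicates 1, 2 and 3 above every other library (log2 fold change -0.39 ± 0.128 SE, adjusted p = 0.0204, two-sided exact permutation p = 0.0693). The call was lost without any 1 of DMSO replicates 1, 2 and 3 and PBKi replicate 6, with log2 fold changes of -0.34, -0.35, -0.28 and -0.34. RPL22, whose protein is known to restrain RPL22L1, ran from 248 to 301 CPM in DMSO and from 188 to 225 in PBKi, with the groups apart (log2 fold change -0.41 ± 0.0571 SE, adjusted p = 1.98e-05). RPL22L1 was the only -like paralogue with a TOP start at its annotated first base. Among canonical members, all 17 without such a start were called lower, against 21.6% of all genes tested. Whether the start bears on the fall of RPL22L1 was not tested.

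The ratio of each paralogue to its partner was compared directly, as the difference of their log2 CPM in each library. Tested over the 7 pairs that passed the filter by two-sided exact permutation with Benjamini-Hochberg adjustment, 4 ratios were higher in PBKi. RPL10L to RPL10 rose by 0.91 (-7.61 ± 0.164 in DMSO and -6.71 ± 0.276 in PBKi, SD, n = 6 each, exact permutation adjusted p = 0.00505). RPL7L1 to RPL7 rose by 0.27 (-0.45 ± 0.0777 to -0.18 ± 0.0662, exact permutation adjusted p = 0.00505). RPL26L1 to RPL26 rose by 0.22 (-4.84 ± 0.0524 to -4.62 ± 0.0929, exact permutation adjusted p = 0.00505).

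RPS27L to RPS27 rose by 0.36 (-2.19 ± 0.196 to -1.83 ± 0.148, exact permutation adjusted p = 0.0189), with overlapping groups. This ratio was higher in PBKi in 6 of 6 same-numbered pairs. For the ratios of RPL10L, RPL7L1 and RPL26L1 the groups did not overlap, so any pairing of libraries gives the same count. The ratio of RPL22L1 to RPL22 differed by 0.06, less than its SD of 0.37 in DMSO (exact permutation adjusted p = 0.740). That small difference averages -0.10 in replicates 1 to 3 and 0.21 in replicates 4 to 6. DMSO ratios ran from 1.61 to 1.93 in the first of these sets and from 1.02 to 1.16 in the other, with PBKi ratios from 1.61 to 1.67 and from 1.24 to 1.36. RPL3L to RPL3 differed by 0.39 (exact permutation adjusted p = 0.106) and RPL36AL to RPL36A by 0.22 (exact permutation adjusted p = 0.242), neither past the threshold. RPL36AL, an intronless gene for a protein nearly identical to that of RPL36A, lay outside the symbol rule and had a log2 fold change of 0.08 ± 0.0467 SE (adjusted p = 0.157).

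**Figure D3:**
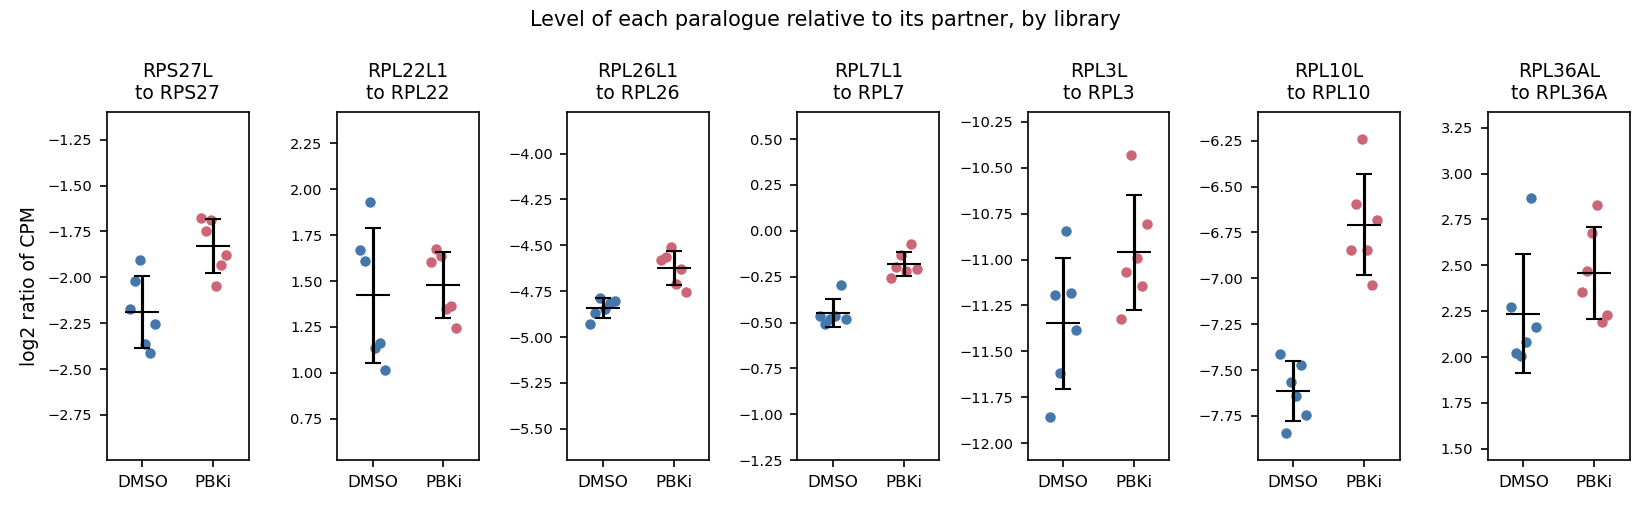
Log2 ratio of the CPM of each paralogue to that of its partner (vertical axis, the same span in every panel) in the DMSO and PBKi libraries, 1 point a library, with bars for the mean and SD (n = 6 per group). The PBKi points lie higher for RPL10L, RPL7L1 and RPL26L1 without overlap, higher with overlap for RPS27L, and differ by 0.06 for RPL22L1, where replicates 1 to 3 give -0.10 and replicates 4 to 6 give 0.21.

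The measured features that differ among canonical members went little with the size of the fall. Across the 75 canonical members, which share their libraries and are not independent, Spearman's rho with the log2 fold change was -0.04 for mean CPM, -0.05 for coding length, -0.03 for the share of unique 40-base windows and -0.13 for the number of small nucleolar RNAs inside the gene. Of the 58 canonical members with a TOP start 57 were lower, with a median of -0.34, and of the 17 without one 17 were lower, with a median of -0.36. The 28 that hold a small nucleolar RNA were all lower, with a median of -0.36. Of the 47 that hold none, 46 were lower, with a median of -0.33. All of these counts stand against 21.6% of all genes tested.

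How well reads can be placed also differed between members without going with the fall. The 15 canonical members with at least 80% unique windows, among them RPS21, RPS14, RPL11, RPLP2 and RPS19, were all lower, with a median of -0.34. The 10 members with no unique window, among them RPL21, RPL41 and RPS26, included 9 lower, with a median of -0.35. Of all genes tested, 21.6% were lower. Per kilobase of coding sequence, mean levels in DMSO ran from 100.5 CPM for RPL36A to 4111 for RPS18 among canonical members, and these levels fold in how much of each gene could be counted.

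Of 104 tested ribosomal protein pseudogenes, 30 were lower (28.8%, against 21.6% of all genes), 2 were higher (RPLP0P2 and RPL18P13, where 20.1% of all genes were) and 72 were not called. Their median log2 fold change was -0.32. Their reads were 0.0678% ± 0.00559 of reads on genes in DMSO and 0.0557% ± 0.00281 in PBKi (SD, n = 6 each). How far these reads come from the parent genes was not tested. The 73 mitochondrial ribosomal protein genes, which serve the separate ribosome of the organelle, had a median of -0.14 with 26 lower (35.6%) and 1 higher, against 21.6% and 20.1% of all genes.

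Other genes of the translation pathway were taken from fixed lists. Of 15 tested mRNAs listed for a TOP motif and outside the member list, 9 were lower in the edgeR test, with a median of -0.20. At this adjusted p under 0.05, the 9 were 60% of the list, against 21.6% of all genes. None was higher, against 20.1% of all genes. Among genes outside the member list with a mean of at least 100 CPM, 30.9% were lower. On this list of 15, HNRNPA1 and VIM held no TOP start at the annotated first base. NAP1L1, a histone chaperone, fell most (log2 fold change -0.82 ± 0.0656 SE, adjusted p = 3.67e-08), followed by the initiation factor EIF4B (-0.41 ± 0.0752 SE, adjusted p = 0.000301), HNRNPA1 (-0.31 ± 0.0588 SE, adjusted p = 0.000373) and RACK1, which sits on the small subunit (-0.25 ± 0.0647 SE, adjusted p = 0.00486). EEF2, EEF1B2, EIF3A, EIF3H, TPT1 and VIM were not called. FAU, which encodes a small-subunit protein fused to a ubiquitin-like protein and lies outside the rule, was not called (-0.15 ± 0.0733 SE, adjusted p = 0.105).

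Among tested protein-coding genes with an annotated start outside the member list, 607 had a TOP start. Of these, 200 (32.9%) were lower and 87 higher, with a median of -0.09. Those without one numbered 11651, of which 2648 (22.7%) were lower and 2387 higher, with a median of -0.02. These sets were not matched for level. Of genes outside the member list with a mean of at least 100 CPM, 30.9% were lower, with a median of -0.06. The part of the start in this difference was not tested.

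**Figure D4:**
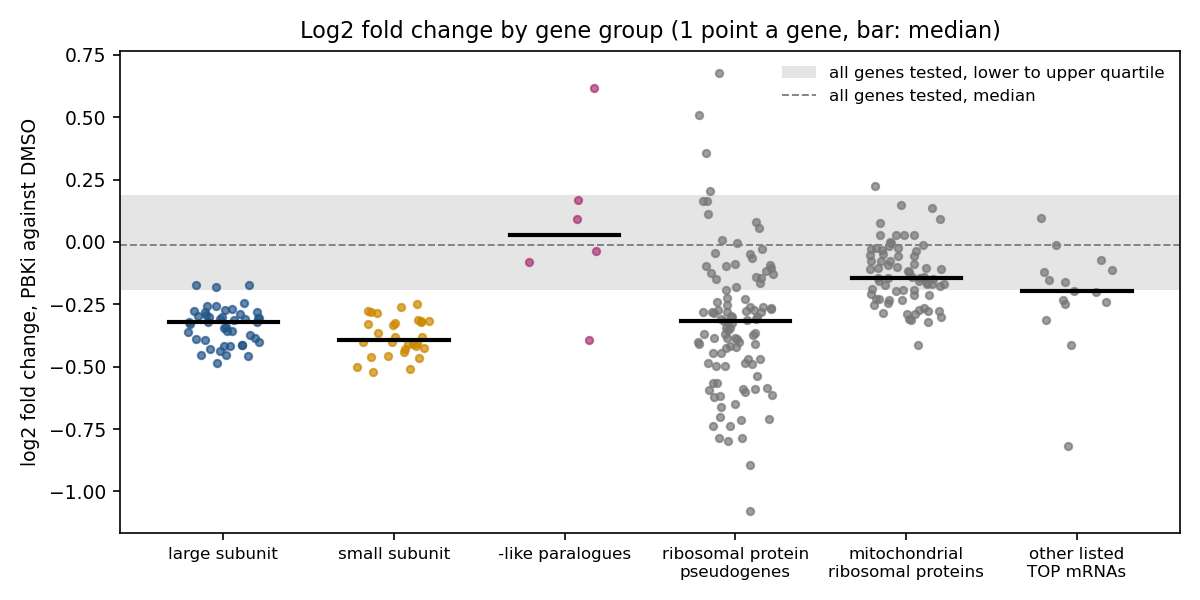
Log2 fold change of PBKi against DMSO (vertical axis) by gene group, 1 point a gene with a bar at the median, over the median and quartiles of all genes tested. Medians are -0.32 for the large subunit, -0.39 for the small subunit, 0.03 for -like paralogues, -0.32 for pseudogenes, -0.14 for mitochondrial ribosomal proteins and -0.20 for the other listed TOP mRNAs.

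Among 19 listed regulators of ribosomal protein synthesis, 4 were lower (21.1%) and 3 higher, no larger a share than the 21.6% and 20.1% of all genes. MYC, a transcription factor that drives ribosomal protein genes, ran from 373 to 418 CPM in DMSO and from 214 to 263 in PBKi, with the groups apart (log2 fold change -0.73 ± 0.0554 SE, adjusted p = 1.79e-08). GABPA, an ETS-family factor that binds many ribosomal protein promoters, fell by 0.40 (adjusted p = 2.17e-05), EIF4EBP1, a repressor of cap-dependent translation, fell by 0.39 (adjusted p = 9.09e-05), and RPS6KB1, the kinase of RPS6, fell by 0.29 (adjusted p = 0.000309). TSC1, an inhibitor of mTORC1, rose by 0.42 (adjusted p = 3.62e-05), LARP4 rose by 0.19 (adjusted p = 0.00925) and EIF4EBP2 rose by 0.16 (adjusted p = 0.0363). MTOR and LARP1 had log2 fold changes of -0.01 and 0.11 and were not called. Of 12 listed chaperones and surveillance factors for ribosomal proteins, only MDM2 passed the test (0.21 ± 0.0526 SE, adjusted p = 0.00355), so that 0 were lower and 1 higher, against 21.6% and 20.1% of all genes.

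Since the ratio of large-subunit to small-subunit reads separated replicates 1 to 3 from 4 to 6 within both groups, sets that the labels do not name as a batch, the members were also compared within each set. In replicates 1 to 3 their median log2 fold change was -0.40, with 76 of 81 called lower where 21.3% of all genes were, and 1 called higher where 22.6% were. In replicates 4 to 6 the median was -0.27, with 39 called lower where 8.48% of all genes were, and 1 called higher where 9.08% were. The 39 were all called in both sets, 78 members had a negative log2 fold change in both, and 74 were more negative in replicates 1 to 3. The difference between the sets was not tested.

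RPL22L1 had -0.58 in replicates 1 to 3 and -0.12 in replicates 4 to 6. RPS21 had -0.69 and -0.30, RPS6 had -0.46 and -0.33, and RPL10L had 0.70 and 0.56. RPS27L had -0.0021 and 0.24, and in replicates 4 to 6 alone it was called higher (adjusted p = 0.0470), whereas RPL10L there missed the threshold (adjusted p = 0.0611). The median level of the members, as the deviation of the log2 CPM from each gene's mean over all libraries, ran from 0.19 to 0.30 in DMSO replicates 1 to 3 and from -0.05 to 0.13 in DMSO replicates 4 to 6. In PBKi it ran from -0.26 to -0.07 and from -0.27 to -0.07, so the sets differed mainly among the DMSO libraries.

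**Figure D5:**
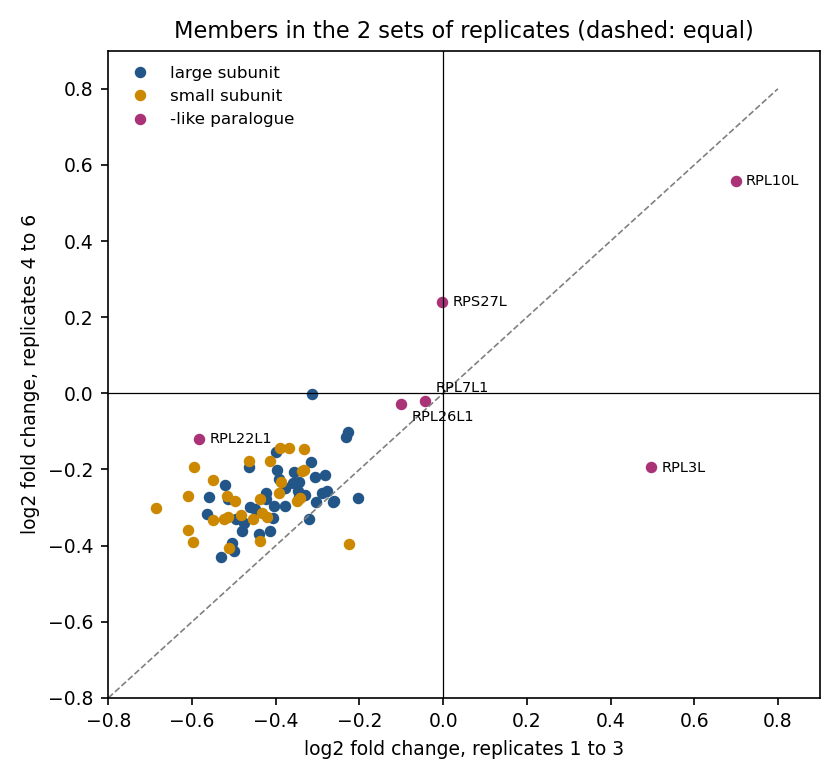
Log2 fold change of PBKi against DMSO for each member in replicates 1 to 3 (horizontal axis) and in replicates 4 to 6 (vertical axis), n = 3 per group in each set, with a dashed line where both are equal. Most points lie in the lower left above the line (74 of 81), and RPL10L is positive in both sets.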

How the data were processed

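Single-end reads of 40 bases were obtained for 6 DMSO and 6 PBKi libraries. Per the labels and the study's methods, the authors aligned them to GRCh37 with TopHat2 2.0.4 and deposited raw counts per gene from HTSeq 0.5.3p9, which drops reads with several alignments (41 to 47 were dropped for every 100 counted on genes) or in overlapping genes. Whether counting used strand is not given in the sources used here. The 47 lane files were summed by library. DMSO replicate 5 had 3 lanes and the others 4. Of 54127 identifiers, 47098 matched a symbol.

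Counts were tested with edgeR 4.0.16 (quasi-likelihood, TMM factors, at least 10 counts in at least 6 libraries, no covariate, Benjamini-Hochberg adjustment over all genes, threshold 0.05), in R 4.3.3, with an SE from the log2 fold change and F. The pairs of paralogue and partner and single genes were tested by exact permutation of the group labels on log2 CPM (prior count 2), with scipy 1.17.1 for correlations. Nothing states that the libraries of a group came from separate cultures, so p-values measure the spread between these libraries.

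Transcript starts and coding sequences came from GENCODE on GRCh37, and a 40-base window was unique where it occurred once in that genome on either strand. Named members were PBK, all paralogue pairs, members not called lower, the 6 most and the 6 least negative called members, and RPLP0, RPLP1, RPLP2, RPSA, RPL5, RPL11, RPS6 and RPS27A. RPS28, RPS18 and the examples of unique windows were named after their values were seen. Some members and listed genes enter the counts and medians but are not reported here by name. The members and gene lists were chosen with earlier results of these data known.

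Alternatives were RLE or total-count scaling, TMM without the members, other filters, DESeq2 1.42.0, limma-voom (limma 3.58.1), lanes 6 to 8, a replicate block, a covariate for the replicate sets, each set alone, each library left out and a threshold of 0.01.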

Additional observations from a re-analysis of the deposited data

Results flagged for a closer look

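Values of 82 groups of 6 libraries were examined for a library far from the other 5 (Dixon's test), and 3 stood out, where chance gives about 5% of groups. RPL36A was lowest in DMSO replicate 5, at 19.9 CPM against a DMSO median of 32.9 and a highest value of 37.4. The log2 ratio of RPL36AL to RPL36A was accordingly highest in that library, at 2.87 against 2.01 to 2.27. The log2 ratio of RPL7L1 to RPL7 was also highest in DMSO replicate 5, at -0.29 against -0.51 to -0.46. DMSO replicate 5 was the shallowest library, with 9663203 reads on genes, and the part of depth in these values was not tested.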

How the results depend on the processing

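The count of members called lower was 75 and ran from 71 to 76 under RLE scaling, total counts, TMM without the members, 2 other filters, DESeq2, limma-voom, lanes 6 to 8, a set covariate and replicates 1 to 3 alone, and from 70 to 75 with each library left out. In replicates 4 to 6 alone it was 39. RPL10L was the 1 member called higher, so 0 were with canonical members only. Without PBKi replicates 3 and 6, an alternative chosen after seeing the data, 67 were lower. Medians stayed between -0.40 and -0.27 for all members. Log2 fold changes near 0 changed sign for RPL3L in replicates 4 to 6 (-0.19), for RPL7L1 with total counts (0.011) and without PBKi replicates 3 and 6 (0.012), and for RPS27L in replicates 1 to 3 (-0.0021). The causes were not tested. With each library left out, the log2 ratio difference of RPL22L1 to RPL22 ran from -0.024 to 0.16. That of RPL3L to RPL3 ran from 0.28 to 0.49 and passed the threshold without DMSO replicate 4 (0.49), and that of RPL36AL to RPL36A ran from 0.15 to 0.35 and passed it without DMSO replicate 5 (0.35). Same-numbered libraries correlated by 0.0887 to 0.299 in their deviations from the group means. These positive values do not settle whether equal numbers mark pairs, and the main test took no pairing. With the replicate block 75 members were lower and 1 higher, where 26.2% and 24% of all genes were. The sign-change test within same-numbered pairs cannot give a p below 0.03125 unadjusted, and the 4 called ratio differences (0.36, 0.22, 0.27 and 0.91) had an adjusted p of 0.0547. Of the called members named, RPL19, RPL6 and RPS27A also lost their calls with total counts. Over the named genes and all alternatives, 778 log2 fold changes kept their direction and their side of the threshold, 37 in 13 genes lost their call, 4 gained one and 4 changed sign.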
